A study of Homo sapiens with 12 samples.

Results

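The genes described here are 10 subunits of the ring-shaped SMC (structural maintenance of chromosomes) complexes. The cohesin subunits are SMC1A, SMC3, RAD21, STAG1 and STAG2, and the condensin subunits are SMC2, SMC4, NCAPD2, NCAPG and NCAPH. They are a list named by complex and not selected by a threshold on their values, although results of these data were known when the list was chosen. All 10 were found among the 18417 genes of the array that had a probe set with a single gene symbol, each with 1 probe set.

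Expression was measured in EA.hy 926 cells, a human hybrid line that came from a fusion of endothelium of the umbilical vein and A549 lung carcinoma cells. Hi cells were grown in Medium 199 with 9 uM folic acid, and Lo cells had been adapted, in parallel, to the same medium with its own 23 nM folic acid only. Confluent Hi and Lo cultures were given fresh medium for 24 h and were then exposed to 0.5 uM pemetrexed for 48 h or kept as controls, which gave the groups Hi control, Hi pemetrexed, Lo control and Lo pemetrexed. Pemetrexed, an antifolate drug, blocks thymidylate synthase and enzymes of purine synthesis. Each group held 3 biological replicates with 1 array each, 12 arrays in all. All groups are the same cell line, all were in 10% serum, and Lo and Hi cells had been cultured apart, so any other difference between the cultures is part of each difference between Lo and Hi cells.

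Cohesin and condensin are built alike. In each, a pair of SMC proteins with ATPase heads (SMC1A and SMC3 in cohesin, SMC2 and SMC4 in condensin) is closed into a ring by a kleisin protein, RAD21 or NCAPH, and HEAT-repeat proteins bind the kleisin (STAG1 or STAG2, and NCAPD2 with NCAPG). Cohesin holds sister chromatids together from S phase until anaphase and forms chromatin loops throughout interphase, so non-dividing cells also use it. Condensin compacts chromosomes in mitosis, and several of its non-SMC subunits are made mainly in dividing cells.

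Values are log2 expression values from robust multi-array averaging (RMA), so a difference of 1 is a 2-fold change. A probe set's brightness also depends on its probes, so the members' levels are compared below only within a gene. Changes are given with the standard error of a linear model over the 12 arrays (limma), and a gene is said to have risen or fallen where its Benjamini-Hochberg adjusted p over all 18417 genes was under 0.05. The replicates behind the p-values are biological but come from 1 cell line. The array medians lay between 7.24 and 7.33, and precision is limited by the number of arrays. A pair of control arrays went against their labels. On the first principal component (61.1% of the variance) the array labelled Hi control replicate 3 scored 8.94, where the other Hi arrays scored from -20.1 to -17.8, and that labelled Lo control replicate 3 scored -19.3, where the other Lo controls scored 7.18 and 6.75. Both kept their labels, and results that rest on them are also given without them.

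Marker genes are given by mean log2 value only as a rough check of the labelled cell type. Of the endothelial markers PECAM1 stood at 12.94, CDH5 at 12.55 and VWF at 8.07, and of the epithelial markers KRT7, KRT8 and KRT18 at 11.74 to 12.11 and EPCAM and CDH1 at 5.64 and 5.78. Of the leukocyte markers PTPRC stood at 4.13 but CD68 at 12.01 and LYZ at 9.11, and of the fibroblast markers DCN and LUM at 3.98 and 4.11 but COL1A1 at 8.30. The summed signal of 8 endothelial markers was lowest in treated Lo cells, and its ranges in the other groups overlapped. In Hi cells it was 0.151% to 0.239% of the array's gene signal in controls and 0.204% to 0.235% with pemetrexed. In Lo cells it was 0.153% to 0.216% in controls and 0.113% to 0.128% with pemetrexed. Of the 8 markers 3 fell with pemetrexed in Lo cells, where 5.14% of all genes fell. In Lo controls and treated Lo cells the 8 epithelial markers summed to 0.0797% to 0.105% and 0.0857% to 0.0944%. In the same order 8 fibroblast markers summed to 0.00643% to 0.00709% and 0.00695% to 0.00715%, and 7 leukocyte markers to 0.0339% to 0.0407% and 0.0367% to 0.0411%. The part of these shifts in the results below was not tested.

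The response to pemetrexed in folate-restricted cells is the difference between the Lo pemetrexed and the Lo control arrays. Most condensin genes fell, and most cohesin genes did not pass the test. All 5 changes in each complex were below 0, as were those of 8227 of 18417 genes. At an unadjusted limma p under 0.05 there were 4 condensin genes, 3 cohesin genes and 4267 of all genes. Of the 5 condensin genes 4 fell, and of the 5 cohesin genes 1 fell, where 5.14% of all genes tested fell. No member rose, as 5.6% of all genes did. The median change was -0.65 for condensin and -0.26 for cohesin, beside 0.02 for all genes. For 6 of the 10 members (4 condensin, 2 cohesin) every treated array lay below every Lo control array, which held for 14.1% of all genes.

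NCAPH, the kleisin that closes the condensin ring, had the largest change of the 10. It was at 9.94, 10.12 and 9.84 in Lo controls and at 8.36, 8.45 and 8.42 in treated Lo cells. The treated arrays lay close together and more than a log2 unit below every control. The change was -1.55 ± 0.16 (SE), to 34.1% of the control level (limma adjusted p = 9.47e-05). In Hi cells it was at 9.43, 9.90 and 9.87 in controls and at 9.27, 9.73 and 9.99 after pemetrexed, and these groups overlapped. The lowest of the 9 arrays outside the Lo pemetrexed group was at 9.27, against 8.45 for the highest inside it.

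NCAPD2, a HEAT-repeat subunit of condensin I, was measured most tightly. It was at 11.48, 11.41 and 11.43 in Lo controls and at 10.72, 10.88 and 10.75 in treated Lo cells. It fell by 0.65 on the log2 scale (SE 0.07), to 63.5% of the control level (limma adjusted p = 0.000181). Its Hi values were 11.29, 11.36 and 11.27 in controls and 11.25, 11.31 and 11.48 with pemetrexed. All 3 treated Lo arrays lay below all 9 others.

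NCAPG, the other HEAT-repeat subunit of condensin I, was at 10.44, 10.27 and 9.94 in Lo controls, the last being the array that stood apart. In treated Lo cells it was at 9.61, 9.71 and 9.47. The groups did not overlap, and the change was -0.62 ± 0.12 (limma adjusted p = 0.00625). Without both arrays that stood apart it was -0.76 ± 0.11 (adjusted p = 0.000877). In Hi cells the values were 9.89, 10.06 and 10.01 in controls and 9.71, 9.88 and 10.04 with pemetrexed. The lowest Hi pemetrexed array thus nearly met the highest treated Lo array.

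The SMC subunits of condensin went different ways in the test. SMC2 was at 8.94, 9.23 and 9.19 in Lo controls and at 8.19, 8.61 and 8.30 in treated Lo cells, with no overlap. It fell by 0.75 on the log2 scale (SE 0.18, limma adjusted p = 0.0167). SMC2 did not pass without Lo control replicate 2 or 3 or without Lo pemetrexed replicate 1 or 3 (adjusted p 0.057 to 0.0732). SMC4 was at 11.40, 11.44 and 11.18 in Lo controls, and its treated Lo arrays, at 11.13, 11.19 and 11.17, met the lowest of these. Its change of -0.18 ± 0.12 did not pass (limma adjusted p = 0.397), with a 95% interval from -0.43 to 0.07. Without both arrays that stood apart it was -0.26 ± 0.12 (adjusted p = 0.219).

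**Figure D1:**
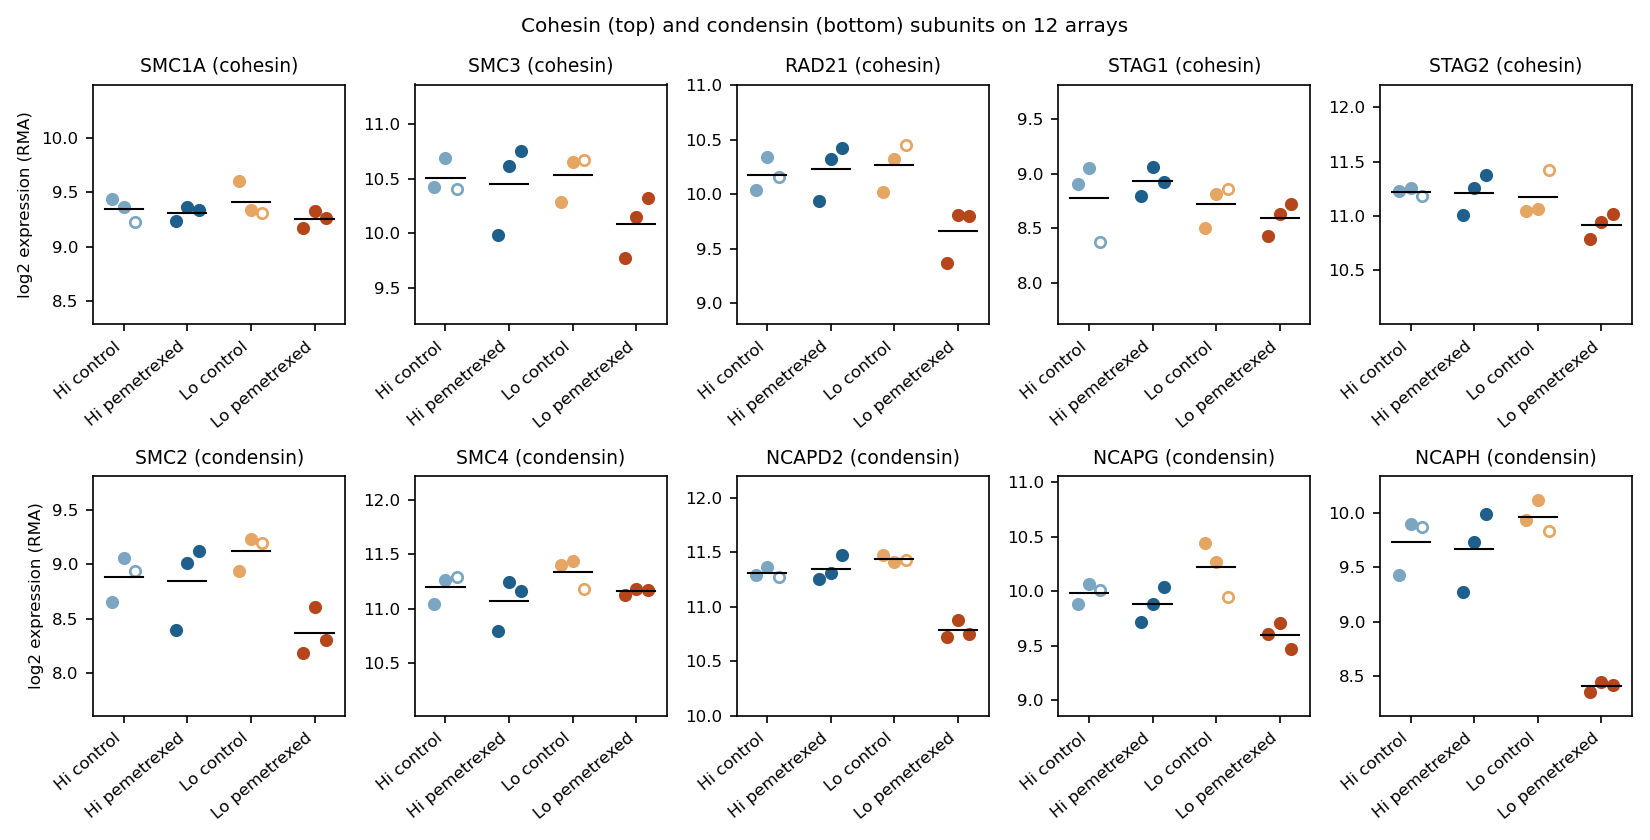
Log2 expression (RMA) of the 5 cohesin genes (top) and 5 condensin genes (bottom) on each array, by group; points are arrays in the order of replicates 1 to 3, open points are the control arrays that stood apart, bars are group means, and every panel spans 2.2 log2 units. The Lo pemetrexed points of NCAPH lie between 8.36 and 8.45, below all other arrays, while those of SMC1A and SMC4 overlap the other groups.

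RAD21, the kleisin of cohesin that separase cuts at anaphase, was the cohesin gene that fell. It was at 10.02, 10.33 and 10.45 in Lo controls and at 9.37, 9.81 and 9.80 in treated Lo cells. The change was -0.61 ± 0.16 (limma adjusted p = 0.0264), and all treated Lo arrays lay below the 9 others, the lowest of which was at 9.94. The call was lost without Lo control replicate 2 or 3 or Lo pemetrexed replicate 1 (adjusted p 0.0783 to 0.110). Without both arrays that stood apart the change was -0.52 ± 0.17 (adjusted p = 0.0792). In Hi cells RAD21 was at 10.04, 10.34 and 10.16 in controls and at 9.94, 10.33 and 10.43 with pemetrexed.

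The SMC subunits of cohesin did not pass. SMC3 was at 10.29, 10.65 and 10.67 in Lo controls and at 9.77, 10.15 and 10.33 in treated Lo cells, where the highest treated array lay above the lowest control. Its change was -0.45 ± 0.19 (limma adjusted p = 0.175). SMC1A, at 9.60, 9.33 and 9.31 against 9.18, 9.33 and 9.26, had a change of -0.16 ± 0.09 (adjusted p = 0.332). Its 95% interval ran from -0.36 to 0.04. In Hi cells SMC3 was at 10.42, 10.69 and 10.40 in controls and at 9.99, 10.62 and 10.76 with pemetrexed, and SMC1A at 9.44, 9.37 and 9.23 and at 9.24, 9.36 and 9.34.

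STAG1 and STAG2 are alternative subunits of which a cohesin ring carries either. STAG2 was at 11.04, 11.06 and 11.42 in Lo controls and at 10.79, 10.95 and 11.02 in treated Lo cells. The groups did not overlap, but the change of -0.26 ± 0.11 did not pass (limma adjusted p = 0.202), and it was -0.13 ± 0.11 without both arrays that stood apart, of which the Lo control was the highest STAG2 value of all 12. STAG1 was at 8.50, 8.81 and 8.86 in Lo controls and at 8.43, 8.63 and 8.73 in treated Lo cells, a change of -0.13 ± 0.16 (adjusted p = 0.711). In Hi controls STAG1 was at 8.90, 9.05 and 8.37, the last again the array that stood apart, and with pemetrexed at 8.79, 9.07 and 8.93. STAG2 there was at 11.23, 11.25 and 11.19 and at 11.01, 11.26 and 11.38.

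The count for condensin was the same without both arrays that stood apart and that for cohesin was lower. In that fit 4 of 5 condensin genes and 0 of 5 cohesin genes fell (limma, where 5.74% of all genes fell), with medians of -0.72 and -0.21. In these 10 arrays samples with the same replicate number deviated together. With the replicate number as a block, SMC3 (-0.52 ± 0.09, limma adjusted p = 0.00127) and RAD21 (-0.60 ± 0.07, adjusted p = 0.000121) fell, so that 2 cohesin and 4 condensin genes passed, where 9.99% of all genes fell. Pemetrexed replicate 1 was the low array of its group. It had the lowest value of all 10 members among the Hi pemetrexed arrays and of 9 of 10 among the Lo pemetrexed arrays, where 34.2% and 35.5% of all genes were lowest on those arrays.

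The same drug in folate-replete cells was examined by Hi pemetrexed against Hi control arrays. All 10 members lay close to their controls, with changes from -0.13 (SMC4, ± 0.12) to 0.15 (STAG1, ± 0.16). NCAPH, which changed most in Lo cells, stood at -0.07 ± 0.16 here, NCAPD2 at 0.04 ± 0.07 and RAD21 at 0.05 ± 0.16. Limma called 0 of the 10 members and 0 of 18417 genes (0%), and at an unadjusted p under 0.05 there were 0 members and 266 genes. The 95% intervals of the members reached down to -0.47 (SMC3) and up to 0.50 (STAG1), and that of NCAPD2 ran from -0.12 to 0.20. Changes inside a member's own interval were not excluded by these arrays. The value of STAG1 turned to -0.05 without both arrays that stood apart. For 0 members did the treated and control arrays separate, which held for 2.96% of all genes in the lower and 2.48% in the higher direction.

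**Figure D2:**
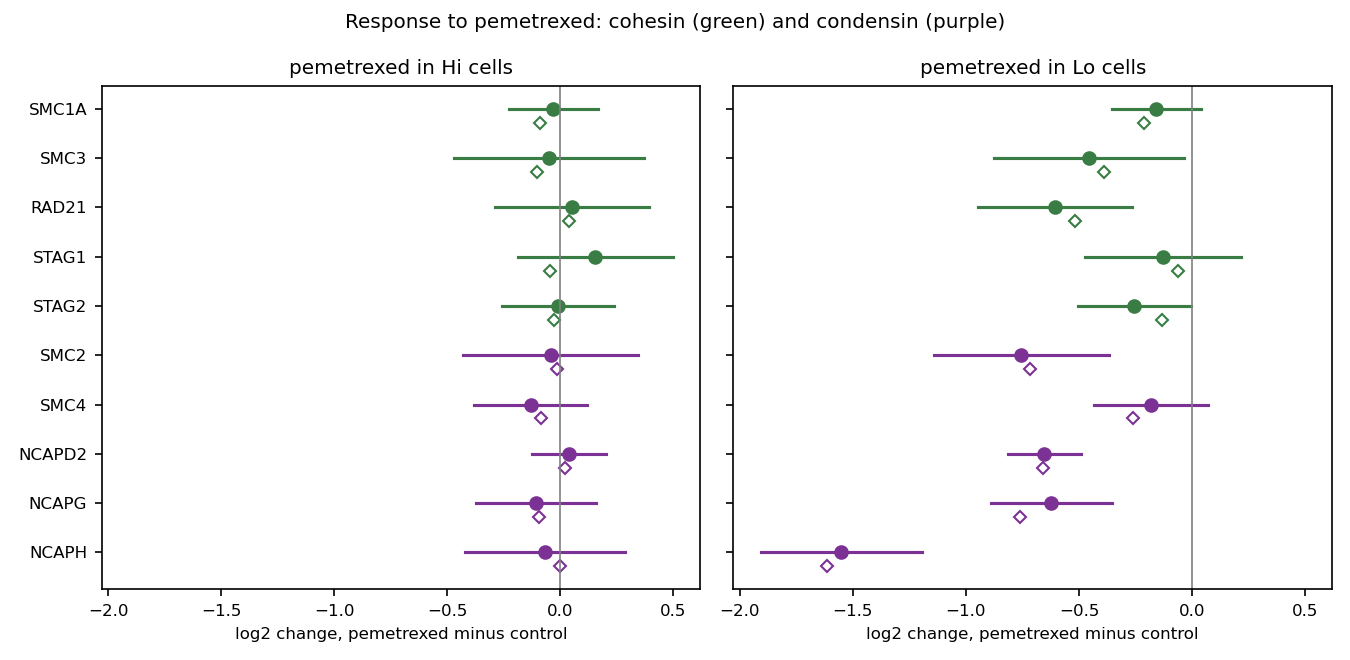
Log2 change with pemetrexed of each cohesin (green) and condensin (purple) gene in Hi cells (left) and Lo cells (right); filled points and bars are the limma estimate over 12 arrays with its 95% interval, and open diamonds the estimate without both control arrays that stood apart. NCAPH lies at -1.55 in Lo cells and -0.07 in Hi cells, and the intervals of SMC1A, STAG1 and SMC4 cross 0 in both.

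Whether the response depended on folate was tested as the Lo response minus the Hi response (the interaction). It was negative for all 10 members, as it was for 8351 of 18417 genes. It passed for 2 members, both condensin genes, where 2.24% of all genes passed with a negative difference. NCAPH differed by -1.48 ± 0.23 (limma adjusted p = 0.00411) and NCAPD2 by -0.69 ± 0.11 (adjusted p = 0.00359). SMC2 (-0.71 ± 0.25, adjusted p = 0.133), RAD21 (-0.66 ± 0.22, adjusted p = 0.114) and NCAPG (-0.52 ± 0.17, adjusted p = 0.114) did not pass. For SMC4 the difference was -0.05 ± 0.16, and its sign turned without Hi control replicate 1, Hi pemetrexed replicate 2 or Lo control replicate 2. Without both arrays that stood apart NCAPG passed as well (-0.66 ± 0.16, adjusted p = 0.0346), where 2.14% of genes did. With the replicate block added SMC2 and RAD21 also passed (adjusted p = 0.0145 and 0.00334), which made 5 members where 4.76% of genes passed. The medians of the difference were -0.69 for condensin, -0.28 for cohesin and 0.02 for all genes.

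Low folate alone was examined by Lo control against Hi control arrays. All 5 condensin genes had higher means in Lo controls, by 0.13 (NCAPD2) to 0.24 (SMC2), and none passed. Of all 18417 genes 8548 had higher means there. Cohesin genes differed by -0.05 to 0.09. The difference between the medians of the complexes was 0.20, but 0.06 without Lo control replicate 1 and 0.11 without Hi control replicate 1. Limma called 0 of 10 members and 0 of 18417 genes (0%), with 0 members and 387 genes at an unadjusted p under 0.05. For NCAPD2 every Lo control (11.41 to 11.48) lay above every Hi control (11.27 to 11.36), which held in that direction for 2.14% of all genes, and for 0 members (3.61% of all genes) did every Lo control lie below. This comparison rests most on the arrays that stood apart. Without them 1320 genes passed in either direction (7.17%). Again 0 members did, and a count of 0 in a list of 10 lies near this share. NCAPG was then at 0.38 ± 0.12 (limma adjusted p = 0.0924), NCAPH at 0.36 ± 0.20, SMC4 at 0.27 ± 0.13 and STAG1 at -0.32 ± 0.13. Medians in that fit were 0.27 for condensin and -0.08 for cohesin. With the replicate block STAG1 was lower in Lo cells (-0.32 ± 0.08, adjusted p = 0.0213, where 6.42% of genes were lower).

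The treated cultures were compared by Lo pemetrexed against Hi pemetrexed, which uses none of the control arrays for the means. NCAPH (-1.25 ± 0.16, limma adjusted p = 0.000306), NCAPD2 (-0.56 ± 0.07, adjusted p = 0.000335) and RAD21 (-0.57 ± 0.16, adjusted p = 0.0195) were lower in Lo cells. These are 3 of 10 members, where 11% of all genes were lower. For 5 members the arrays did not overlap, with the Lo values lower, where this held for 18.7% of all genes. RAD21 did not pass without Hi pemetrexed replicate 2 or 3 or Lo pemetrexed replicate 1 (adjusted p 0.0712 to 0.0839). The median was -0.48 for condensin and -0.33 for cohesin, beside 0.01 for all genes. All 8 endothelial markers were lower in Lo cells in this comparison (0.204% to 0.235% of the signal in Hi and 0.113% to 0.128% in Lo pemetrexed arrays), and their part in it was not tested. SMC4 was the member with a difference above 0, at 0.09 ± 0.12. The arrays that stood apart enter only the estimate of the spread, and without them 6 members passed, now with STAG1 (-0.33 ± 0.11), STAG2 (-0.29 ± 0.09) and NCAPG (-0.29 ± 0.10), where 14% of genes were lower. With the replicate block SMC2 (-0.48 ± 0.10) and SMC3 (-0.37 ± 0.07) were lower too, 8 members in all, where 18% of genes were. Without Hi pemetrexed replicate 1, the lowest array of its group, 6 members passed, while the count over all genes was 3366 against 4107 with all arrays. The difference between the condensin and cohesin medians, -0.14 with all arrays, was -0.24 when Lo pemetrexed replicate 2 was left out and -0.04 when replicate 3 of that group was.

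The order Lo control, Hi control, Hi pemetrexed, Lo pemetrexed, from high to low means, held for 5 of 10 members. The share of all genes with this order was not computed, so the count is a description only. Lo pemetrexed had the lowest mean for 9 of 10, the exception being SMC4, whose lowest group was Hi pemetrexed. Over all genes Lo pemetrexed was lowest for 34.2%. Lo control had the highest mean for 8 of 10, among them all 5 condensin genes, and for 15.5% of all genes. For RAD21, NCAPD2, NCAPG and NCAPH, 4 of 10, all Lo pemetrexed arrays lay below the 9 others, which held for 8.78% of all genes. The means of the other 3 groups spanned between 0.05 (STAG2) and 0.34 (NCAPG), and neither contrast tested among them (Hi pemetrexed or Lo control against Hi control) passed for any member with all 12 arrays.

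The complexes were set against each other on each array as the mean of their 5 genes relative to the Hi control mean. Condensin minus cohesin was 0.33, 0.24 and -0.04 in Lo controls, the last being the array that stood apart, and -0.12, -0.22 and -0.42 in treated Lo cells. In Hi cells it was -0.16, -0.03 and 0.19 in controls and -0.12, -0.11 and -0.02 with pemetrexed. The treated Lo arrays thus lay below all Lo controls, and the highest of them lay among the Hi controls and beside the lowest Hi pemetrexed array. The condensin mean itself was 0.19 ± 0.09 (SD, n = 3) in Lo controls and -0.56 ± 0.09 in treated Lo cells, and the cohesin mean was 0.02 ± 0.13 and -0.30 ± 0.17. In Hi pemetrexed cells the condensin mean was -0.06 ± 0.25 and the cohesin mean 0.02 ± 0.21. These means describe genes chosen with results known, and no test was made of them.

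**Figure D3:**
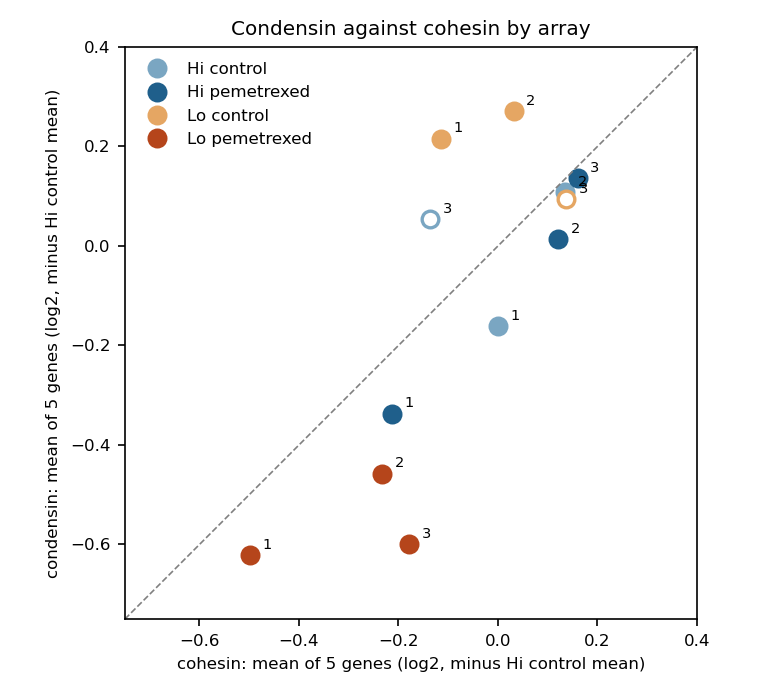
Mean log2 value of the 5 condensin genes (vertical) against that of the 5 cohesin genes (horizontal) on each array, both relative to the Hi control mean; numbers are replicates, open points are the control arrays that stood apart, and the dashed line marks equal values. The Lo pemetrexed arrays lie lowest on the vertical axis, between -0.62 and -0.46, and below the line.

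Members varied together to different degrees over the 12 arrays. The median Pearson r was 0.81 over the 10 pairs of condensin genes, 0.63 over the 10 pairs of cohesin genes and 0.52 over the 25 mixed pairs. The closest condensin pair was NCAPD2 with NCAPH (r = 0.97) and the closest cohesin pair SMC3 with RAD21 (r = 0.93), and RAD21 with SMC2 reached r = 0.92. STAG1 with SMC4 was the lowest pair (r = -0.14). These are descriptions over 12 arrays that share groups and array quality. With each group's mean taken off, r was 0.61 for NCAPD2 with NCAPH and 0.95 for SMC3 with RAD21. The closest condensin pair was then SMC4 with NCAPH (r = 0.88). Outside the list, the 6 genes most like the condensin mean over 12 arrays were KIF23 (r = 0.996), CEP55 (0.990), FANCI, PBK, ARHGAP11A and KNL1 (0.986 to 0.988). KIF23 and CEP55 serve cytokinesis and KNL1 is a kinetochore scaffold. Those most like the cohesin mean were NCKAP1 (r = 0.985), LRRCC1, ROCK2, TMPPE, GALNT7 and AP3M1 (0.973 to 0.980). In treated Lo cells the genes like condensin changed by -1.53 (PBK) to -0.82 (CEP55), with KIF23 at -1.01 ± 0.13. Those like cohesin changed by -0.72 (LRRCC1) to -0.15 (AP3M1), with NCKAP1 at -0.28 ± 0.10. Both sets were picked for likeness on these same arrays, so their changes are no separate evidence.

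The promoters of the condensin genes are shown because 4 of these 5 genes fell together. The sequences are the 250 bases before each RefSeq gene start in GRCh38.p14, 5′ to 3′ on the gene's strand, and 9 of the 10 members had an entry. RAD21 did not. Capitals mark matches, on either strand, to the cell cycle genes homology region (CHR, TTTGAA or TTCGAA) and to the CCAAT box (CCAAT), elements known from promoters of many genes of G2 and mitosis, and to the E2F motif spelled TTTCCCGC, TTTGGCGC or TTTCGCGC.
NCAPH (chr2:96335516-96335765, + strand): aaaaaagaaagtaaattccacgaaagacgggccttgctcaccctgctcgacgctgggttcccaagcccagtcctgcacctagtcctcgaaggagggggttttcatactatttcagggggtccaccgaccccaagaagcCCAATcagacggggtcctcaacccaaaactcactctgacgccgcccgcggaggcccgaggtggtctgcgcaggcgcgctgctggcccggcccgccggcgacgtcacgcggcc
NCAPD2 (chr12:6493852-6494101, + strand): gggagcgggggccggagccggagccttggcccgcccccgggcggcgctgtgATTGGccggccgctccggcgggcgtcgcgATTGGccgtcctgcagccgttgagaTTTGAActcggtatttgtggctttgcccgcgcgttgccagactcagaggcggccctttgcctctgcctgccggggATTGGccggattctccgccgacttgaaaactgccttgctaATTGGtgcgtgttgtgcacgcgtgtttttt
NCAPG (chr4:17810729-17810978, + strand): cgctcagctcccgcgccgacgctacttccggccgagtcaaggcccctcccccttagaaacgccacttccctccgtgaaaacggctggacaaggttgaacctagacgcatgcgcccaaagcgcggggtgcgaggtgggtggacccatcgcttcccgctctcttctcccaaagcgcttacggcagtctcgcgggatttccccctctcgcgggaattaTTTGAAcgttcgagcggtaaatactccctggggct
SMC2 (chr9:104094059-104094308, + strand): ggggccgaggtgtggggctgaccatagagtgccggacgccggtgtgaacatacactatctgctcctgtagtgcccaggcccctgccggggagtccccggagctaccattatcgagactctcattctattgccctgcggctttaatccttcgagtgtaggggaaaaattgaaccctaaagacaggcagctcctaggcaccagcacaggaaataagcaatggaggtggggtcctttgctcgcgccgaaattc
SMC4 (chr3:160399400-160399649, + strand): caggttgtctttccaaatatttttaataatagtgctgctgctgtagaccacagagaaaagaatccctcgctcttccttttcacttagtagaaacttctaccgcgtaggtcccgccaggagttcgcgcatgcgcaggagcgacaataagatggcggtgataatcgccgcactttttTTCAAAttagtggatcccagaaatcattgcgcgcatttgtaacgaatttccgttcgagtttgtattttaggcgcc

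NCAPD2 held a CHR match (145 to 140 bases before the start) and 4 CCAAT boxes. NCAPG held a CHR match 35 to 30 bases before the start, and SMC4, which did not pass the test, held one 75 to 70 bases before it. NCAPH held a CCAAT box only (112 to 108 bases before the start), and SMC2 held none of the 3 motifs in this window. Of the 4 cohesin genes with an entry, SMC3 held a CHR match, STAG2 a CCAAT box, and STAG1 a CCAAT box and an E2F match, while SMC1A held none. Thus 3 of 5 condensin and 1 of 4 cohesin promoters held a CHR match, where 14.3% of 35116 promoters of this length did. CCAAT boxes were in 2 condensin and 2 cohesin promoters, against 32% of all, and E2F matches in 1 of 9 against 2.32%. No matches of different motifs overlapped. A match is a description of letters and was not tested for binding.

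Other genes of the SMC complexes were taken from lists by role. Condensin II shares SMC2 and SMC4 with condensin I but has its own kleisin and HEAT-repeat subunits, and 2 of these 3 genes fell in treated Lo cells, where 5.14% of all genes fell. NCAPG2 changed by -1.27 ± 0.16 (limma adjusted p = 0.000339) and NCAPD3 by -0.87 ± 0.09 (adjusted p = 0.000119), while NCAPH2, its kleisin, stood at -0.11 ± 0.07. The kleisins of the complexes thus had changes of -1.55 for NCAPH, -0.61 for RAD21 and -0.11 for NCAPH2. The difference from the Hi response passed for NCAPG2 (-1.29 ± 0.23, adjusted p = 0.00783) and NCAPD3 (-0.84 ± 0.13, adjusted p = 0.00425), where 2.24% of all genes passed with a negative difference.

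Among 7 genes of cohesin loading and release, 1 fell and 0 rose, where 5.14% and 5.6% of all genes did. It was PDS5B, a regulator that binds the ring near the kleisin (-0.48 ± 0.10, limma adjusted p = 0.0112). Its paralog PDS5A was at -0.24 ± 0.07 (adjusted p = 0.0628), and passed without both arrays that stood apart (-0.26 ± 0.07, adjusted p = 0.0421). The loader subunits NIPBL (-0.19 ± 0.12) and MAU2 (0.15 ± 0.08) and the release factor WAPL (-0.08 ± 0.13) did not pass.

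Of 8 genes that establish or protect cohesion, 3 fell, where 5.14% of all genes did. SGO2 and SGO1, the shugoshins that guard centromeric cohesin, changed by -1.88 ± 0.12 and -0.66 ± 0.13 (limma adjusted p = 4.49e-06 and 0.00546). DSCC1, part of an alternative clamp loader that serves cohesion, changed by -0.68 ± 0.15 (adjusted p = 0.011). The acetyltransferases ESCO1 (0.17 ± 0.09) and ESCO2 (0.04 ± 0.24) and CDCA5, or sororin (-0.34 ± 0.14), did not pass. ESPL1, the separase that cuts RAD21, fell by 0.49 on the log2 scale (SE 0.09, adjusted p = 0.00472), and its inhibitor PTTG1, or securin, stood at 0.08 ± 0.15. In the treated cultures PTTG1 was higher in Lo than in Hi cells (0.51 ± 0.15, limma adjusted p = 0.0273). That call was lost in 5 of the 12 fits without a single array, those without Hi pemetrexed replicate 1 or 2 or any 1 of the Lo pemetrexed arrays (adjusted p 0.0559 to 0.105). It held without both arrays that stood apart (adjusted p = 0.00542), where PTTG1 was also higher in Lo controls (0.60 ± 0.14, adjusted p = 0.0226). The difference from the Hi response passed for SGO2 (-1.81 ± 0.17, adjusted p = 0.000288) and not for SGO1 (-0.65 ± 0.18, adjusted p = 0.0614) or ESPL1 (-0.47 ± 0.13, adjusted p = 0.0594). SGO1 passed without both arrays that stood apart (-0.76 ± 0.19, limma adjusted p = 0.0467), and with the replicate block added ESPL1 did (-0.46 ± 0.13, adjusted p = 0.0463).

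Of 5 genes for proteins that shape mitotic chromosomes with condensin, 4 fell, where 5.14% of all genes did. TOP2A, the topoisomerase II of dividing cells, changed by -1.69 ± 0.13 (limma adjusted p = 1.48e-05), and the chromosome kinesin KIF4A by -1.53 ± 0.14 (adjusted p = 4.62e-05). MKI67, the Ki-67 protein of the chromosome surface, changed by -0.85 ± 0.16 (adjusted p = 0.00453) and TOP2B, the isoform also used by non-dividing cells, by -0.61 ± 0.12 (adjusted p = 0.00688). Beside these genes, 12 genes were listed as context for proliferation. Of these 9 fell and 1 rose in treated Lo cells, against the same 5.14% and 5.6% of all genes. Their changes ran from -2.44 to 0.71, with a median of -1.06. In bulk RNA fewer dividing cells and less RNA of these genes per cell cannot be told apart.

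**Figure D4:**
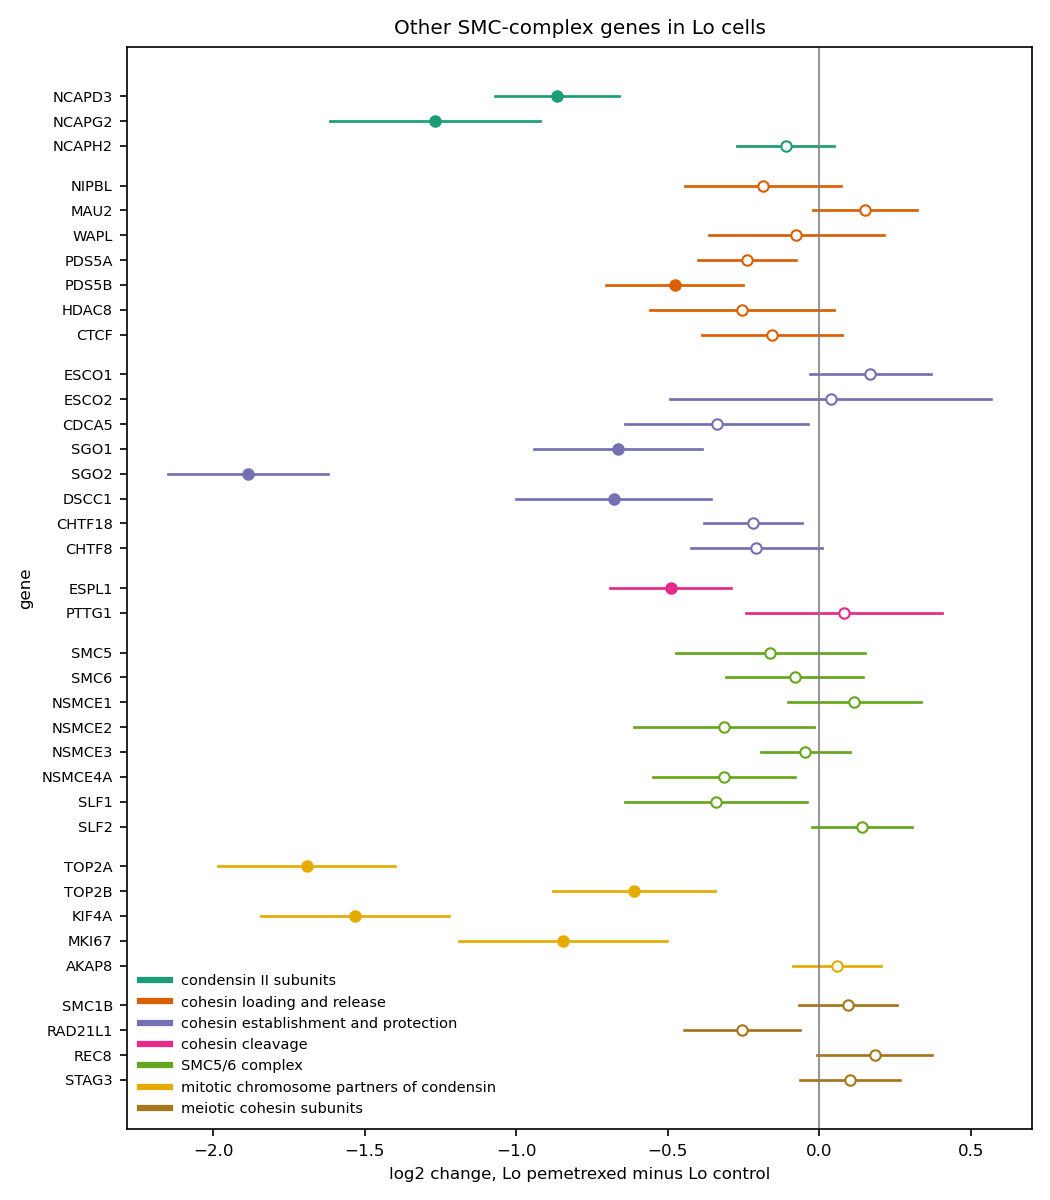
Log2 change with pemetrexed in Lo cells (horizontal, Lo pemetrexed minus Lo control, with the 95% interval of the limma fit) of other genes of the SMC complexes, coloured by list; filled points passed at an adjusted p under 0.05. SGO2 (-1.88), TOP2A (-1.69) and KIF4A (-1.53) lie farthest to the left, and no gene of the SMC5/6 or meiotic lists is filled. Over all genes 5.14% fell and 5.6% rose in this comparison.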

How the data were processed

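Total RNA of 12 cultures was hybridised to Affymetrix arrays, 1 array per sample. The authors deposited 1 log2 value per probe set and array, computed by RMA in Partek 6.5 according to the submitters' processing notes. RMA settings, annotation and build are not given in the sources used here.

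The table held 33297 probe sets, of which 19460 were listed with 1 symbol and 1754 with more, and 12083 were unlisted. For the 769 genes with several probe sets the brightest by mean was used, which gave 18417 genes, with no filter. Group means were estimated over the 12 arrays with lmFit and eBayes (limma 3.58.1 in R 4.3.3, 8 residual degrees of freedom, two-sided tests), with 5 contrasts adjusted by Benjamini-Hochberg. The code was tested on simulated data. Alternatives were the replicate block, single arrays or both arrays that stood apart left out, quantile normalization, a minimum mean of 6, the mean of probe sets, a trended robust fit, and 6 arrays only.

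Over 12 arrays, 11 of 18 same-numbered pairs had deviations correlated above 0.1. Without both arrays that stood apart all 13 did (0.115 to 0.543), though with 2 controls per group their deviations are mirror images.

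The members, the lists and the exclusion of the 2 arrays were chosen with earlier results of these data known. All members are named; from other lists, called genes with the smallest p and a fixed set. MCPH1 and RCC1 were not analysed here.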

Additional observations from a re-analysis of the deposited data

Results flagged for a closer look

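The response to pemetrexed differed between Lo and Hi cells, by limma's test of the difference itself, for NCAPH (-1.48, adjusted p = 0.00411) and NCAPD2 (-0.69, adjusted p = 0.00359) among the 10 members. It also differed for SGO2 (-1.81, adjusted p = 0.000288), TOP2A (-1.56, adjusted p = 0.000972), KIF4A (-1.49, adjusted p = 0.00173), NCAPG2 (-1.29, adjusted p = 0.00783) and NCAPD3 (-0.84, adjusted p = 0.00425) among the other genes named, all in log2 units.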

How the results depend on the processing

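NCAPH, NCAPD2 and NCAPG kept their fall in treated Lo cells, and NCAPH and NCAPD2 their difference from the Hi response, under every alternative run. Counts of members called with single arrays left out ran from 3 to 5 in treated Lo cells (3 without Lo control replicate 2 or 3 or Lo pemetrexed replicate 1), from 2 to 6 between treated cultures and from 2 to 3 for the interaction. Counts of all genes ran from 1170 to 2563 (1978 with all arrays), from 2855 to 4607 (4107) and from 443 to 956 (886). For the interaction, condensin minus cohesin medians ran from -0.46 to -0.25 (-0.41 with all arrays), the latter without Hi control replicate 1; between treated cultures they ran from -0.24 to -0.04 (-0.14) and in control cells from 0.06 to 0.26 (0.20).

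The replicate block over 12 arrays raised members called from 3 to 6 between treated cultures and from 2 to 4 for the interaction, while all genes called went from 4107 to 4492 and from 886 to 994. Without both arrays that stood apart, 6 members passed between treated cultures, 1320 genes passed in control cells, and condensin minus cohesin was 0.35 there against 0.20. With the block added to that fit, 3385 genes passed in treated Lo cells, 2422 genes and 1 member in control cells (difference again 0.35), 6554 genes and 8 members between treated cultures, and 1738 genes and 5 members for the interaction. The cause of these shifts was not tested. Quantile normalization, the filter, the mean of probe sets, the trended fit and the 6-array fit (not run for the interaction) left every count within 1.5 times. Changes not called in either fit changed sign in 151 cases over all settings, 81 of them in Hi cells.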

Other observations

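The SMC5/6 complex, an SMC ring that serves DNA repair, had 0 of 8 genes called by limma in treated Lo cells. Over all genes 5.14% fell and 5.6% rose there, and a count of 0 in a list of 8 lies near these shares. At an unadjusted p under 0.05 there were 3 of the 8, beside 4267 of 18417 genes, and the median was -0.12. Between the treated cultures NSMCE4A (-0.50 ± 0.11, limma adjusted p = 0.0059) and NSMCE2 (-0.54 ± 0.14, adjusted p = 0.0136), both subunits of that complex, were lower in Lo cells, where 11% of all genes were. Without both arrays that stood apart NSMCE2 was also lower in Lo controls (-0.34 ± 0.09, limma adjusted p = 0.0493), where 7.17% of all genes passed in either direction. NSMCE4A was at -0.36 ± 0.10 there (adjusted p = 0.0593). Of 4 meiotic cohesin genes 0 were called in treated Lo cells, where 5.14% of all genes fell and 5.6% rose. At an unadjusted p under 0.05 there was 1 of the 4, and the median change was 0.10. Of these RAD21L1 (-0.25, limma adjusted p = 0.0918) passed without both arrays that stood apart (-0.28 ± 0.08, adjusted p = 0.0494) and without Hi control replicate 3 alone (adjusted p = 0.039). Its signal was low, with means of 5.13 in Lo controls and 4.88 in treated Lo cells. These lie under the minimum mean of 6, so the fit with that filter left the gene out. Between the treated cultures the loader NIPBL was lower in Lo cells (-0.36 ± 0.12, limma adjusted p = 0.0477). That call was lost in 9 of the 12 fits that left out a single array, and with the replicate block over 12 arrays (adjusted p = 0.0682). Without both arrays that stood apart it held (adjusted p = 0.0024), and NIPBL was also lower in Lo controls (-0.33 ± 0.09, adjusted p = 0.0398). Its interaction in that fit was -0.02 ± 0.11. CHTF8, a clamp loader subunit, was lower in treated Lo than in treated Hi cells (-0.41 ± 0.10, adjusted p = 0.0108), a call lost without Lo pemetrexed replicate 3 (adjusted p = 0.053).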
